A study of Mus musculus with 188 samples.

Results

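The Toll-like receptors and their chaperone UNC93B1 were followed across every labelled treatment, dose and time in organotypic mouse brain slices. The 10 genes were chosen by name, as the rows of the count files whose Ensembl ID maps to Tlr1, Tlr2, Tlr3, Tlr4, Tlr6, Tlr7, Tlr8, Tlr9, Tlr13 or Unc93b1. All 10 were listed among 25655 genes in batch 1 and among 25528 genes in batches 2 and 3, and all 10 passed the filter on low counts in both sets. By the study's methods, coronal slices came from C57BL/6J animals without genetic modification, of both sexes and aged 6 to 8 weeks, and were treated on day 7 of culture with proteins of human origin. Of 188 libraries, 167 had a group in the labels. Batch 1 held 6 groups of 10 libraries at 24 h. They were control slices, slices with heme-albumin (heme on its low-affinity carrier) at 12.5, 50, 200 or 400 µM, and slices with hemeHpx (heme bound to hemopexin) at 200 µM. The titles of the hemeHpx libraries name haptoglobin, whereas their treatment tags and library names give hemopexin. Batches 2 and 3 held 12 groups at 24 h and 48 h. These were controls (n = 10 and 9), hemoglobin (Hb) at 200 and 400 µM (n = 10 each), hemoglobin-haptoglobin (HbHp) at 200 µM (n = 8 each) and 400 µM (n = 4 and 5), and haptoglobin (Hp) alone at 400 µM (n = 12 and 11). The labels do not tie libraries to animals, so p-values measure the spread between libraries, which may be partly technical. In a bulk library, fewer cells of a type and less RNA per cell cannot be told apart.

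Toll-like receptors are germline-encoded sensors of microbial and self-derived molecules. TLR1, TLR2, TLR4 and TLR6 act at the cell surface, where TLR2 pairs with TLR1 or TLR6 to bind lipoproteins and TLR4 binds lipopolysaccharide together with MD-2 and CD14. TLR3, TLR7, TLR8, TLR9 and TLR13 sense nucleic acids in endosomes, to which UNC93B1 escorts them from the endoplasmic reticulum. In the brain most of these receptors are expressed mainly by microglia and other macrophages, and TLR3 is also found in astrocytes and neurons. Free heme has been described as a ligand that acts through TLR4.

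Library totals ran from 11038484 to 44199060 counts in batch 1 and from 15587938 to 54174784 in batches 2 and 3. Levels are given in CPM, the gene's count relative to the library total, with totals scaled by the trimmed mean of M-values. At these depths the members differed widely in precision. In the batch 1 controls Tlr13 was read by 407 to 1517 counts per library, whereas Tlr9 was read by 2 to 13. Brain tissue markers were present in the libraries. The summed level of 18 microglia markers ran from 970 to 3857 CPM in the batch 1 controls, and 1 of the 18, Siglech, was at 0 in all 10 of them.

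Per kilobase of exon, Unc93b1 was the most abundant member, at 22.3 ± 6.29 CPM per kb in batch 1 controls (SD, n = 10), 23.4 ± 6.51 in the 24 h controls of batches 2 and 3 (n = 10) and 30.5 ± 12.4 in the 48 h controls (n = 9). Tlr13, the sensor of bacterial ribosomal RNA in mice, came next at 14.2 ± 6.73, 16.1 ± 5.69 and 19.3 ± 10.9 CPM per kb. Tlr3 (double-stranded RNA), Tlr7 (single-stranded RNA) and Tlr2 followed, at 7.74 ± 1.12, 6.73 ± 3.003 and 5.06 ± 1.06 CPM per kb in batch 1 controls. There Tlr7 differed from each of the other two by less than its own SD, whereas Tlr3 and Tlr2 were further apart than either of their SDs. Tlr7 and Tlr3 changed places in the 48 h controls. Tlr8 (2.90 ± 1.39) and Tlr4 (2.74 ± 0.555) also differed by less than their spread, as did Tlr1 (0.924 ± 0.421) and Tlr6 (0.843 ± 0.380). Tlr9, the sensor of unmethylated CpG DNA, was lowest in each of the 3 control groups, at 0.142 ± 0.0619 CPM per kb in batch 1.

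The first question was whether heme-albumin moved the family. At 200 µM, 6 of the 10 members fell below control: Tlr1, Tlr4, Tlr6, Tlr7, Tlr8 and Tlr13. At 400 µM 6 fell again, with Tlr3 in place of Tlr6. No member rose at either dose. Across all genes tested, edgeR's quasi-likelihood test called 13.6% at 200 µM and 29% at 400 µM in either direction. The lower genes alone made up 6.6% at 200 µM and 14.3% at 400 µM. DESeq2 called 6 members at each dose as well. The libraries of the 2 groups overlapped for every member in every comparison with control. The plot of levels in batch 1 shows this overlap and the downward shift at the 2 upper doses.

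**Figure D1:**
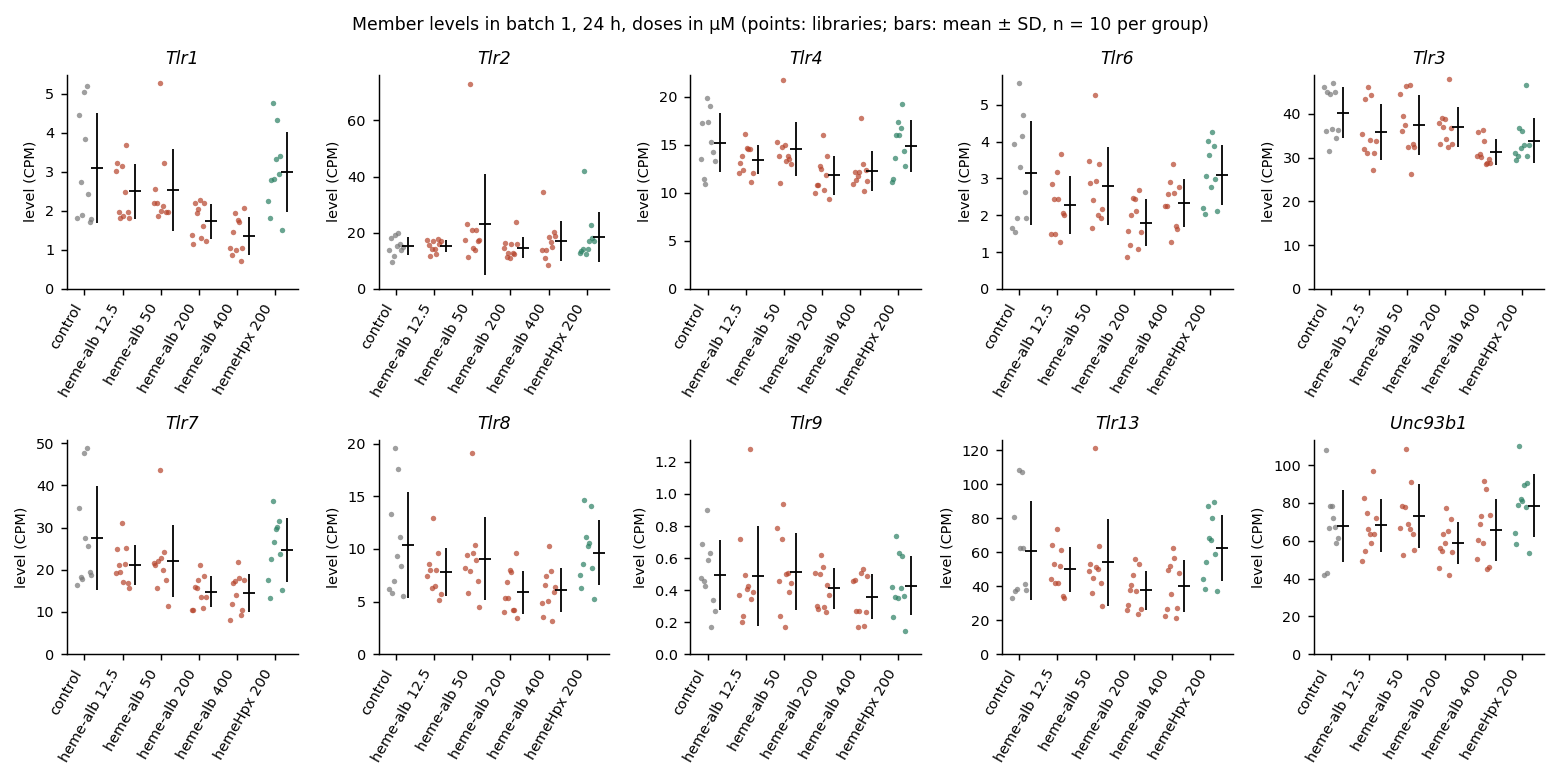
Level of each member in CPM (y axis, linear from 0) in the 6 groups of batch 1 at 24 h. Points are libraries and bars are mean ± SD (n = 10 per group). Tlr7 sits between 10.4 and 21.1 CPM at heme-albumin 200 µM, below the control median of 22.7 CPM, while Tlr2 and Unc93b1 stay within the control range in most libraries.

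Among the endosomal receptors, Tlr7 moved most at 200 µM. Its control libraries ran from 16.4 to 48.7 CPM with a median of 22.7, and the heme-albumin libraries ran from 10.4 to 21.1 (median 14.6) at 200 µM and from 8.04 to 21.8 (median 15.4) at 400 µM. Thus the highest treated library at each of these doses lay below the control median. On the log2 scale the difference was -0.89 ± 0.20 (SE, adjusted p = 0.00165) at 200 µM and -0.91 ± 0.20 (adjusted p = 0.000403) at 400 µM. Tlr8, a related receptor on the same chromosome, ran from 5.48 to 19.6 CPM (median 8.86) in controls, from 3.45 to 9.65 (median 5.33) at 200 µM and from 3.14 to 10.3 (median 6.17) at 400 µM. Most treated libraries were thus under the control median, with log2 differences of -0.81 ± 0.23 (adjusted p = 0.0129) and -0.75 ± 0.23 (adjusted p = 0.0103). Tlr13 ran from 33.4 to 108 CPM (median 51.8) in controls, from 23.9 to 56.2 (median 37.4) at 200 µM and from 21.3 to 62.8 (median 41.8) at 400 µM. Its log2 differences were -0.69 ± 0.23 (adjusted p = 0.0351) and -0.59 ± 0.23 (adjusted p = 0.0440). Tlr13 was the least settled of these calls. When each of the 20 libraries was left out in turn, it was called in 13 fits at 200 µM and in 10 at 400 µM, whereas Tlr7 was called in all 20 fits at each dose.

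Tlr3 passed the test at the higher dose alone. It spanned 31.6 to 47.2 CPM (median 40.6) in controls, 32.4 to 47.9 (median 37.0) at 200 µM and 28.7 to 36.3 (median 30.3) at 400 µM. The 200 µM difference was not called (-0.12 ± 0.09, adjusted p = 0.437), and the 400 µM difference was (-0.36 ± 0.09, adjusted p = 0.00241, called in all 20 fits with 1 library left out). An annotated antisense gene, Gm45542, shares exon sequence with Tlr3, and whether the counting used strand is not given in the sources used here, so part of the Tlr3 count may belong to it. Tlr9 was not called at 200 µM (-0.24 ± 0.30, adjusted p = 0.656) or at 400 µM (-0.40 ± 0.30, adjusted p = 0.326). With counts as low as 3 per library at 400 µM, its 95% interval there reached from -0.99 to 0.18, which includes a fall as large as that of Tlr7.

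Unc93b1 was not called at either dose. It ran from 42.04 to 108 CPM (median 67.1) in controls, from 41.7 to 77.3 (median 57.5) at 200 µM and from 45.2 to 91.4 (median 64.5) at 400 µM. The log2 differences were -0.20 ± 0.14 (adjusted p = 0.376) and -0.05 ± 0.14 (adjusted p = 0.845), with 95% intervals from -0.49 to 0.08 and from -0.33 to 0.23.

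Of the surface receptors, Tlr1 showed the largest fall of any member at 400 µM. Its libraries ran from 1.70 to 5.19 CPM (median 2.58) in controls, from 1.16 to 2.27 (median 1.78) at 200 µM and from 0.7104 to 2.08 (median 1.25) at 400 µM. All libraries at both upper doses thus lay below the control median. The log2 differences were -0.82 ± 0.23 (adjusted p = 0.00940) and -1.15 ± 0.23 (adjusted p = 7.43e-05). Tlr6 ran from 1.55 to 5.59 CPM (median 2.97) in controls, from 0.869 to 2.69 (median 1.79) at 200 µM and from 1.27 to 3.40 (median 2.41) at 400 µM. It was called at 200 µM (-0.78 ± 0.22, adjusted p = 0.0136) but not at 400 µM (-0.40 ± 0.22, adjusted p = 0.168), and the difference between those doses was not tested. Tlr1 and Tlr6 are neighbouring paralogs on chromosome 5 that share sequence. Of the 50-base windows of the longest Tlr1 transcript, 15.3% also occur in Tlr6, and 12.5% of Tlr6 windows occur in Tlr1, so the split of reads between them is uncertain. No window of Tlr2, Tlr4, Tlr7, Tlr8, Tlr9, Tlr13 or Unc93b1 was found in a transcript of another gene.

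Tlr4 fell at both doses. It ran from 10.9 to 19.9 CPM (median 14.8) in controls, from 9.41 to 16.03 (median 11.4) at 200 µM and from 10.2 to 17.8 (median 11.9) at 400 µM. Its log2 differences were -0.36 ± 0.11 (adjusted p = 0.0187) and -0.31 ± 0.11 (adjusted p = 0.0271). Tlr2 was not called, at -0.05 ± 0.23 (adjusted p = 0.926) and 0.17 ± 0.23 (adjusted p = 0.621), and its single libraries reached 23.9 CPM at 200 µM and 34.4 CPM at 400 µM against a control maximum of 19.7 CPM. Leaving out control replicate 16, one of the 2 highest control libraries for Tlr1, Tlr7, Tlr8 and Tlr13, brought the members called at 200 µM from 6 to 3 (Tlr1, Tlr6 and Tlr7).

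Tlr1, Tlr6 and Tlr2 form one receptor group, since TLR2 works with either of the others, and at 200 µM Tlr1 and Tlr6 fell while Tlr2 was not called. Whether the members differed from each other was not tested. The upstream sequences of Tlr1, Tlr6 and Tlr2 are printed as a description, and any link between them and these values was not tested. RefSeq promoter entries (GRCm38.p6) were matched for 7 of the 10 members, and the 250 bases before the start are printed 5′ to 3′ on the strand of the gene. Capitals mark AGGAAGT, a core bound by the myeloid factor PU.1, or a string of the NF-kB type, GGGA and CC with any 4 bases between them, on either strand. Tlr1 and Tlr6 each have a further entry, not printed, without either string. These coordinates belong to GRCm38.p6 and not to the build of the count files.
Tlr1, chr5:64933559-64933808, minus strand: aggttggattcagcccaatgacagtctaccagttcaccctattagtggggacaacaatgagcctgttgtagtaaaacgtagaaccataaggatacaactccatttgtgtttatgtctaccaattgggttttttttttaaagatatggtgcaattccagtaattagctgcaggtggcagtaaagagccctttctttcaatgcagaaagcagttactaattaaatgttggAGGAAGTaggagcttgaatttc
Tlr6, chr5:64959167-64959416, minus strand: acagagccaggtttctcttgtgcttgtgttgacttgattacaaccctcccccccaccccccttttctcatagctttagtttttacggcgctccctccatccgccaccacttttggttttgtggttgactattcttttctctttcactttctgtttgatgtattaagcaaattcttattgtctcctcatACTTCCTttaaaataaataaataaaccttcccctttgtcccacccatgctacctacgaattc
Tlr2, chr3:83841609-83841858, minus strand: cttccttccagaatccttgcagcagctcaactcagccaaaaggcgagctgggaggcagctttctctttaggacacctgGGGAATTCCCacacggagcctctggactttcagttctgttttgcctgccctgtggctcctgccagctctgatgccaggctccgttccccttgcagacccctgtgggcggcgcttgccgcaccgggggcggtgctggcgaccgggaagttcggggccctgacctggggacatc
The AGGAAGT string started 22 bases before the Tlr1 start and, on the other strand, 62 bases before the Tlr6 start. This exact string was absent from the printed stretch of Tlr2, which held 1 match of the NF-kB type. That stretch does hold GGGAAGT, which differs from AGGAAGT in its first letter only and is not marked. Of 32851 promoters of the same length, 7.69% held AGGAAGT and 17.6% held the NF-kB string. Among the 9 member entries, AGGAAGT was found in 2 and the NF-kB string in 2 (Tlr2 and Tlr3). The entries of Tlr8 and Tlr13, which fell at 200 and 400 µM, held neither string, and Tlr3 itself fell at 400 µM. GGAANNGAA, a composite of ETS and IRF letters, was found in 0 of 9 entries and in 6.99% of all promoters. TGANNNNGC, the core bound by NRF2 or BACH1, was found in 2 entries (Tlr8 and Tlr9) and in 35.2% of all promoters. These matches describe the letters in the window only.

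**Figure D2:**
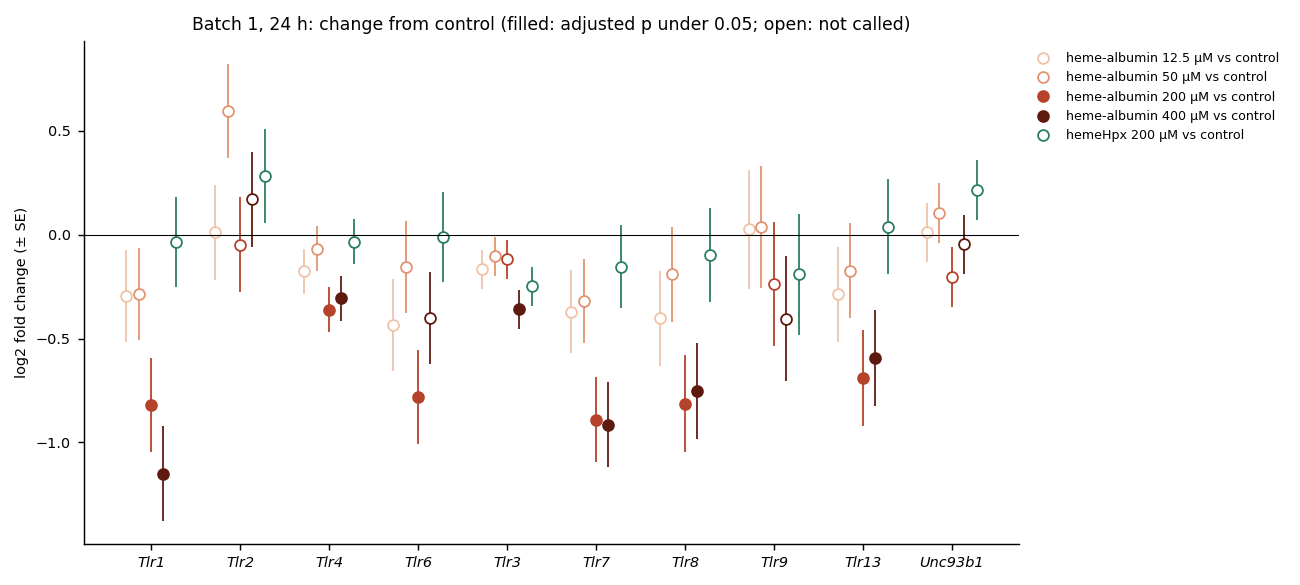
Log2 fold change from control (y axis, ± SE) of the 10 members for 4 heme-albumin doses and for hemeHpx, at 24 h in batch 1. Filled points passed adjusted p 0.05 and open points did not. Tlr1, Tlr4, Tlr7, Tlr8 and Tlr13 are filled at both 200 and 400 µM, and no hemeHpx point is filled.

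At the lower doses no member was called. At 12.5 µM edgeR called 0 of 10, 0 at an unadjusted p under 0.05 and 0 by DESeq2, where 0.045% of all genes were called. The members' median log2 difference was -0.23 beside -0.01 over all genes, and 7 of 10 values lay below 0. At 50 µM edgeR called 0 of 10, DESeq2 called 0, and 1 had an unadjusted p under 0.05, where 0.463% of all genes were called. That gene was Tlr2, which stood at 0.60 ± 0.23 (adjusted p = 0.306). Heme-albumin 50 µM replicate 4 read 72.9 CPM of Tlr2, while the next highest library of that group read 23.2 CPM. Over the 4 doses, the slope per doubling of dose was called for 2 members, where 23.1% of all genes were called. Tlr1 fell by 0.18 ± 0.04 on the log2 scale per doubling (adjusted p = 0.000951) and Tlr7 by 0.13 ± 0.04 (adjusted p = 0.00704). Both held in all 40 fits that left out 1 heme-albumin library. Tlr8 was at -0.10 ± 0.04 (adjusted p = 0.0818) and Tlr13 at -0.09 ± 0.04 (adjusted p = 0.128).

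The next question was whether hemopexin altered the effect of the same heme dose. Compared with control, hemeHpx at 200 µM changed 0 of 10 members by edgeR, with 1 at an unadjusted p under 0.05 (Tlr3) and 0 by DESeq2, where 8.2% of all genes were called. The members' median log2 difference from control was -0.03, beside 0.00 over all genes. Tlr3 was the nearest to a call (-0.25 ± 0.09, adjusted p = 0.0710), with libraries from 29.5 to 46.7 CPM (median 32.5) against a control median of 40.6.

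Compared directly with heme-albumin at 200 µM, hemeHpx slices had higher levels of 7 members, Tlr1, Tlr4, Tlr6, Tlr7, Tlr8, Tlr13 and Unc93b1. Across all genes 25.9% were called, and 13% were called higher. This comparison shares its heme-albumin libraries with the comparison against control, so the values are given side by side and not as separate support. Tlr7 ran from 13.2 to 36.2 CPM (median 25.2) in hemeHpx slices, against the 10.4 to 21.1 already given, a log2 difference of 0.74 ± 0.20 (adjusted p = 0.00694). The 2 groups overlapped, but the hemeHpx median lay above the highest heme-albumin library. Tlr1 was higher by 0.79 ± 0.22 (adjusted p = 0.00834), Tlr6 by 0.77 ± 0.22 (adjusted p = 0.00971) and Tlr13 by 0.73 ± 0.23 (adjusted p = 0.0170). Tlr8 was higher by 0.72 ± 0.23 (adjusted p = 0.0190) and Tlr4 by 0.33 ± 0.11 (adjusted p = 0.0217). Unc93b1 ran from 53.7 to 110 CPM (median 79.9) with hemeHpx and was higher by 0.42 ± 0.14 (adjusted p = 0.0272), a call held in 15 of 20 fits with 1 library left out. Tlr2 (0.33 ± 0.23, adjusted p = 0.266), Tlr3 (-0.13 ± 0.09, adjusted p = 0.289) and Tlr9 (0.05 ± 0.29, adjusted p = 0.914) did not pass.

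Markers of microglia moved with these differences, and so did some markers of other cell types. Of the 17 microglia markers tested, 10 fell and 0 rose at heme-albumin 200 µM, with a median log2 difference of -0.81, and 6 fell and 0 rose at 400 µM (median -0.55). With hemeHpx against heme-albumin at 200 µM, 15 of 17 were higher (median 0.93). The summed level of the 18 markers ran from 970 to 3857 CPM (median 1784) in controls, from 732 to 1846 (median 1297) at 200 µM, from 816 to 2375 (median 1405) at 400 µM and from 1274 to 3184 (median 2282) with hemeHpx. Among the 6 border macrophage markers, 3 fell and 0 rose at 200 µM. The median of their summed level was 99.4 CPM in controls and 73.1 CPM at 200 µM. With hemeHpx against heme-albumin, 4 of the 6 were higher. Of 6 astrocyte markers, 2 fell and 0 rose at 200 µM and 4 fell and 0 rose at 400 µM. Across all genes tested, 6.6% were called lower at 200 µM and 14.3% at 400 µM. With hemeHpx against heme-albumin, 13% were called higher. At 400 µM the water channel gene Aqp4 stood at -0.66 ± 0.09 on the log2 scale (adjusted p = 1.01e-07) and Gfap stood at -0.49 ± 0.11 (adjusted p = 0.000264). The median of the summed astrocyte markers was 9508 CPM in controls, 7187 CPM at 200 µM, 6804 CPM at 400 µM and 8348 CPM with hemeHpx. Of 6 oligodendrocyte markers, 0 were called at either heme-albumin dose and 3 were higher with hemeHpx than with heme-albumin. Neuron markers (6 tested) gave 0 calls at 200 µM, 1 higher and 0 lower at 400 µM, and 0 with hemeHpx against heme-albumin. Endothelial markers (6 tested) gave 1 lower and 0 higher at each dose, and 2 higher with hemeHpx. Neutrophil markers (2 tested) gave 0 calls at 200 µM, 1 higher at 400 µM and 1 higher with hemeHpx. The part of these cells in the receptor differences was not tested.

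Expressed as a percent of the microglia marker sum of the same library, the members took different values. Tlr7 was 1.35% of that sum in controls (range 0.898 to 1.78%), 1.19% at heme-albumin 200 µM (0.953 to 1.51%) and 1.04% at 400 µM (0.761 to 1.29%). Tlr13 was at 2.95%, 2.97% and 2.79% in these 3 groups. Tlr1 was 0.152% in controls and 0.142% at 200 µM but 0.0968% at 400 µM, where the libraries ran from 0.0726 to 0.128% against 0.104 to 0.236% in controls. Unc93b1 was highest with heme-albumin, at 3.44% (2.65 to 4.34%) in controls against 4.77% (4.19 to 5.70%) at 200 µM and 4.80% (3.69 to 6.44%) at 400 µM, and was 3.70% with hemeHpx. Unc93b1 was not alone in this. In controls, at 200 µM and at 400 µM, Tlr4 was at 0.809%, 0.983% and 0.956% and Tlr2 at 0.806%, 1.228% and 1.416%. Tlr3 was at 2.297%, 3.225% and 2.519%, and Tlr9 was higher at both doses too. Tlr8 was lower at both doses, and Tlr6 was lower at 200 µM but higher at 400 µM. For these genes the treated libraries overlapped the controls. These shares are descriptions with no test.

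The rest of the pathway was read from 8 lists of 73 genes, of which 67 were tested in batch 1. At heme-albumin 200 µM 9 of them rose and 9 fell, where 13.6% of all genes were called, and at 400 µM 13 rose and 7 fell, where 29% were, so the share called at 400 µM was near that of all genes. Of 6 co-receptors, 3 fell at each dose and 0 rose, while Cd14, Ly96 and Cd36 were not called. The largest falls were those of Cd180, a TLR4 relative of B cells and myeloid cells (-1.35 ± 0.27, adjusted p = 0.000369 at 200 µM), and its partner Ly86 (-0.996 ± 0.22, adjusted p = 0.00120). At 400 µM Cd14 was at 0.06 ± 0.20 (adjusted p = 0.855) and Ly96, which encodes MD-2, at 0.08 ± 0.13 (adjusted p = 0.709). Of the 7 folding and trafficking genes tested, 1 fell and 0 rose at each dose. It was Hsp90b1, the endoplasmic reticulum chaperone gp96 that folds most Toll-like receptors, at -0.45 ± 0.07 (adjusted p = 1.02e-06) and -0.55 ± 0.07 (adjusted p = 1.39e-09). Of 10 endosomal proteases and nucleases, 1 fell at each dose, the asparagine endopeptidase Lgmn (-0.69 ± 0.16, adjusted p = 0.00251 at 200 µM). Another Toll-like receptor, Tlr5, the flagellin receptor, fell at 200 µM (-0.75 ± 0.23, adjusted p = 0.0219).

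Downstream of the receptors more genes rose than fell, mostly among the transcription factors and the NF-kB output genes. Across all genes 6.98% were called higher and 6.6% lower at 200 µM, and 14.7% higher and 14.3% lower at 400 µM. Of 17 adaptors and kinases, 2 rose and 1 fell at each dose. Traf3 rose by 0.25 ± 0.07 at both doses (adjusted p = 0.00910 and 0.00298), and Irak4, the first kinase after MYD88, fell by 0.25 ± 0.08 and 0.29 ± 0.07 (adjusted p = 0.0163 and 0.00239). Of 9 transcription factors 3 rose at 200 µM and 4 at 400 µM with 0 lower, led by Relb (0.50 ± 0.11 and 0.69 ± 0.11, adjusted p = 0.000622 and 8.79e-07). Of 8 tested NF-kB output genes, 4 rose and 2 fell at 200 µM, and 5 rose and 1 fell at 400 µM. Cxcl2, a neutrophil chemokine, rose by 2.05 ± 0.47 and 3.59 ± 0.48 (adjusted p = 0.00158 and 2.64e-08), and Ptgs2, the inducible cyclooxygenase, by 1.54 ± 0.27 and 2.73 ± 0.28 (adjusted p = 4.93e-05 and 1.40e-11). Ccl4 fell by 1.45 ± 0.28 at 200 µM (adjusted p = 0.000220). Among 9 tested negative regulators, 0 passed at 200 µM and 2 rose at 400 µM, Tnfaip3 (A20) by 0.83 ± 0.20 (adjusted p = 0.00125) and Nfkbia by 0.37 ± 0.12 (adjusted p = 0.0152). With hemeHpx against heme-albumin at 200 µM, 19 of the 67 were higher and 8 lower, where 25.9% of all genes were called. Those higher included 4 of 6 co-receptors and 7 of 10 endosomal proteases and nucleases. Irf8 and Irf5, factors of macrophage identity and of TLR signalling, were higher by 0.71 ± 0.22 (adjusted p = 0.0159) and 0.71 ± 0.26 (adjusted p = 0.0357).

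In batches 2 and 3 the groups were unevenly spread over the library name prefixes E1 and E2, called rounds here, whose meaning the labels do not give. All HbHp libraries were of round E2 and batch 3, while 7 of the 10 control libraries at 24 h and 7 of the 9 at 48 h were of round E1. Hp libraries were of both rounds but all of batch 3. At each time batch 3 held only 1 control library of round E1 and 1 of round E2. HbHp thus had 1 control of the same batch and round at each time. The comparisons were therefore fitted with terms for batch and round. The round itself moved all 10 members, by edgeR's quasi-likelihood test. In round E2 9 were higher and Tlr3 was lower, where 68.0% of all genes were called and 36.1% were called higher. Tlr9 was higher by 0.98 ± 0.17 on the log2 scale, Tlr1 by 0.94 ± 0.12, Tlr7 by 0.87 ± 0.12 and Tlr13 by 0.79 ± 0.10. Tlr3 was lower, at -0.24 ± 0.03 (adjusted p = 1.31e-11). In the 48 h controls Tlr13 ran from 29.7 to 122 CPM in the 7 libraries of round E1 and stood at 142 and 156 CPM in the 2 of round E2. The same split gave 12.6 to 54.6 CPM and 59.4 to 81.5 CPM for Tlr7, so the rounds did not overlap for either gene at that time. Of 17 microglia markers tested, 16 were higher in round E2 and 1 lower, and their summed level in the 48 h controls ran from 1112 to 4494 CPM in round E1 and from 6484 to 7285 CPM in round E2.

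**Figure D3:**
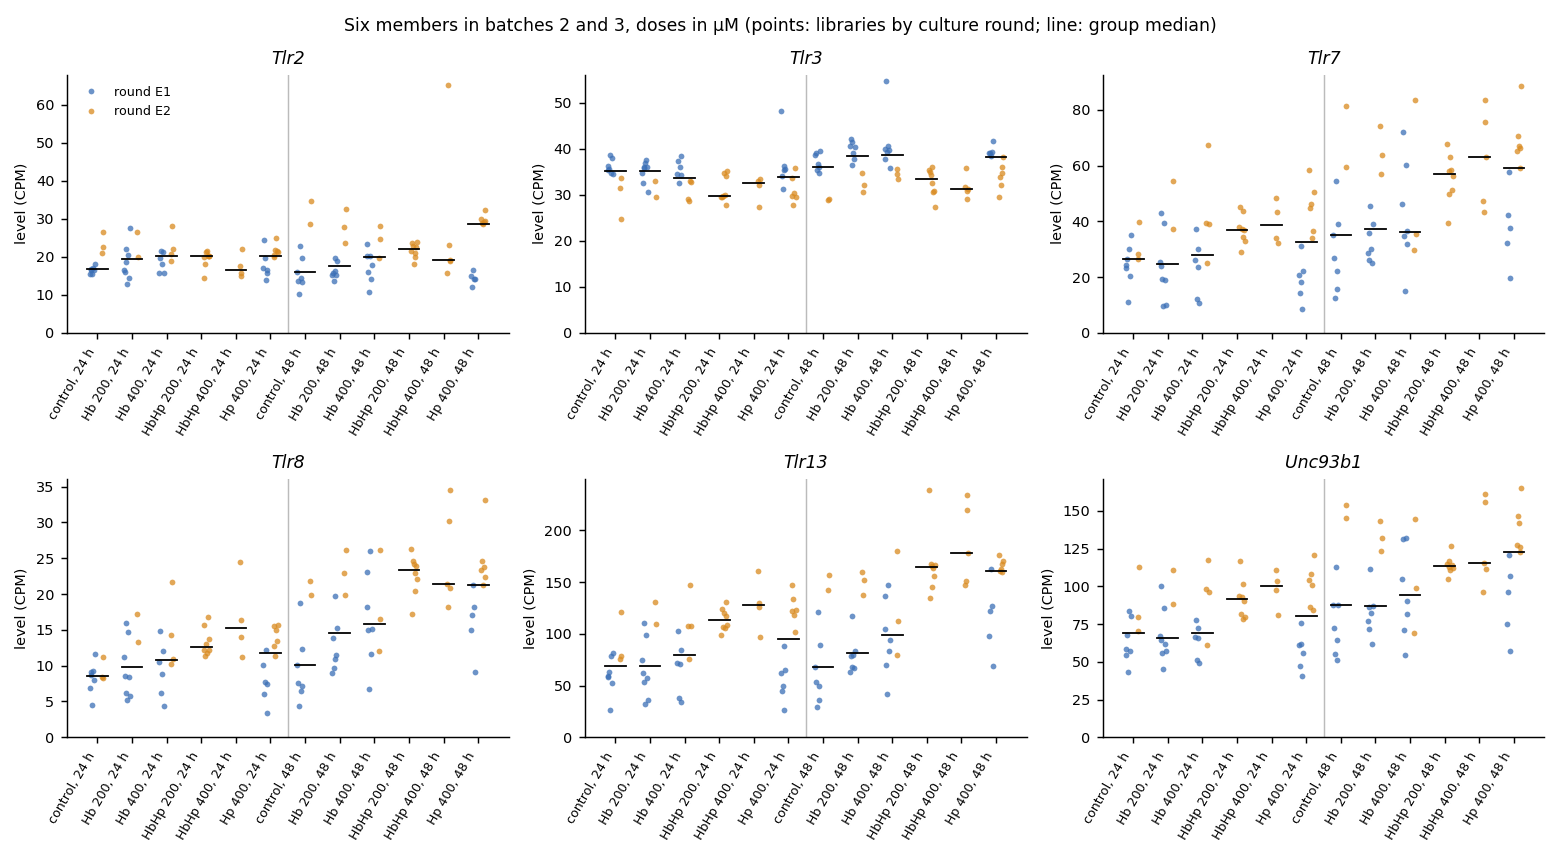
Level in CPM (y axis, linear from 0) of 6 members in the 12 groups of batches 2 and 3, with 24 h left and 48 h right of the grey line. Points are libraries coloured by round, and black lines are group medians. In the 48 h controls the 2 E2 libraries stand above the 7 E1 libraries for Tlr7, Tlr8, Tlr13, Unc93b1 and Tlr2, and below them for Tlr3.

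Free Hb changed no member at this threshold. At 24 h edgeR called 0 of 10 members at 200 µM and 0 at 400 µM, with 0 at an unadjusted p under 0.05 and 0 by DESeq2 at each dose, where 0.0971% and 0.522% of all genes were called. At 48 h it called 0 at 200 µM, where 0.31% of all genes were called, again with 0 at an unadjusted p under 0.05 and 0 by DESeq2. At 400 µM and 48 h it called 0, where 0.601% of all genes were called, with 2 at an unadjusted p under 0.05 and 0 by DESeq2. Those 2 were Tlr8 and Tlr3. Tlr8 ran from 4.42 to 21.8 CPM (median 10.1) in 48 h controls and from 6.77 to 26.2 (median 15.8) with Hb 400 µM, a log2 difference of 0.53 ± 0.21 (adjusted p = 0.430). Tlr3 stood at 0.17 ± 0.06 (adjusted p = 0.235). Tlr4, the receptor linked to heme, was at 0.01 ± 0.12 with a 95% interval from -0.23 to 0.26. Tlr7 was at 0.25 ± 0.23 with an interval from -0.21 to 0.70, which includes a modest rise.

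HbHp likewise gave no call. At 24 h edgeR called 0 of 10 at 200 µM and 0 at 400 µM, with 1 at an unadjusted p under 0.05 and 0 by DESeq2 at each dose, where 1.93% and 5.15% of all genes were called. That gene was Tlr2, at -0.43 ± 0.18 (adjusted p = 0.220) and -0.58 ± 0.21 (adjusted p = 0.0919). At 200 µM it ran from 14.5 to 21.6 CPM (median 20.1) with HbHp and from 15.5 to 26.6 (median 16.8) in controls, so the fitted value was lower while the HbHp median was higher. In the 4 libraries at 400 µM it read 17.6, 15.1, 15.8 and 21.99 CPM, within or near the control range. Without replicate 4 of this group Tlr2 was called, at -0.71 on the log2 scale. At 48 h edgeR called 0 of 10 at 200 µM, with 4 at an unadjusted p under 0.05 and 0 by DESeq2, and 0 at 400 µM, with 2 and 0. In each of these comparisons 11.9% of all genes were called. The lowest adjusted p at 200 µM belonged to Tlr9, at -0.97 ± 0.40 (adjusted p = 0.1002). It ran from 0.219 to 2.51 CPM (median 0.643) in controls and from 0.174 to 1.11 (median 0.746) with HbHp, on as few as 5 counts per library, so the fitted value was lower while the HbHp median was not.

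Tlr13 and Tlr8 were the members with the largest positive values after HbHp at 48 h. Tlr13 ran from 29.7 to 156 CPM (median 67.9) in controls and from 134 to 239 (median 164) at HbHp 200 µM, and read 147, 151, 219, 234 and 178 CPM in the 5 libraries at 400 µM. Every HbHp library stood above the control median, but the 2 controls of round E2, at 142 and 156 CPM, lay inside the HbHp ranges or near their lower end. Its log2 difference was 0.49 ± 0.24 (adjusted p = 0.191) at 200 µM and 0.64 ± 0.27 (adjusted p = 0.107) at 400 µM. Tlr8 ran from 17.3 to 26.3 CPM (median 23.4) at 200 µM and read 21.4, 18.2, 30.3, 34.5 and 20.9 CPM at 400 µM, with differences of 0.53 ± 0.25 (adjusted p = 0.172) and 0.67 ± 0.28 (adjusted p = 0.107). Without the round term both genes were called at both doses. Tlr13 was then at 0.90 ± 0.30 (adjusted p = 0.0195) and 1.05 ± 0.33 (adjusted p = 0.0151), and Tlr8 at 0.87 ± 0.29 (adjusted p = 0.0187) and 1.01 ± 0.32 (adjusted p = 0.0151). Within round E2 alone neither was called at either dose, Tlr13 being at 0.09 ± 0.22 and 0.24 ± 0.23 (adjusted p = 0.855 and 0.642). The summed microglia markers ran from 1112 to 7285 CPM in 48 h controls of both rounds, from 3624 to 5701 at HbHp 200 µM and from 2850 to 6723 at 400 µM. The 2 controls of round E2 stood at 6484 and 7285 CPM, above every library at HbHp 200 µM. In the fit with all libraries 0 of 17 were called at 200 µM while 1 was lower at 400 µM. Within round E2 alone their median log2 difference was -0.74 at 200 µM (0 called) and -0.77 at 400 µM (1 lower). As a percent of the marker sum of the same library, Tlr13 was 1.949 to 3.279% in 48 h controls of both rounds. It was 3.383 to 4.194% at HbHp 200 µM and 3.485 to 5.299% at 400 µM, above all of these controls. For Tlr8 the 3 ranges were 0.2988 to 0.5749%, 0.4275 to 0.5942% and 0.4841 to 0.6402%, which overlapped. These shares are descriptions, and the part of the microglia markers in the values of Tlr13 and Tlr8 was not tested.

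**Figure D4:**
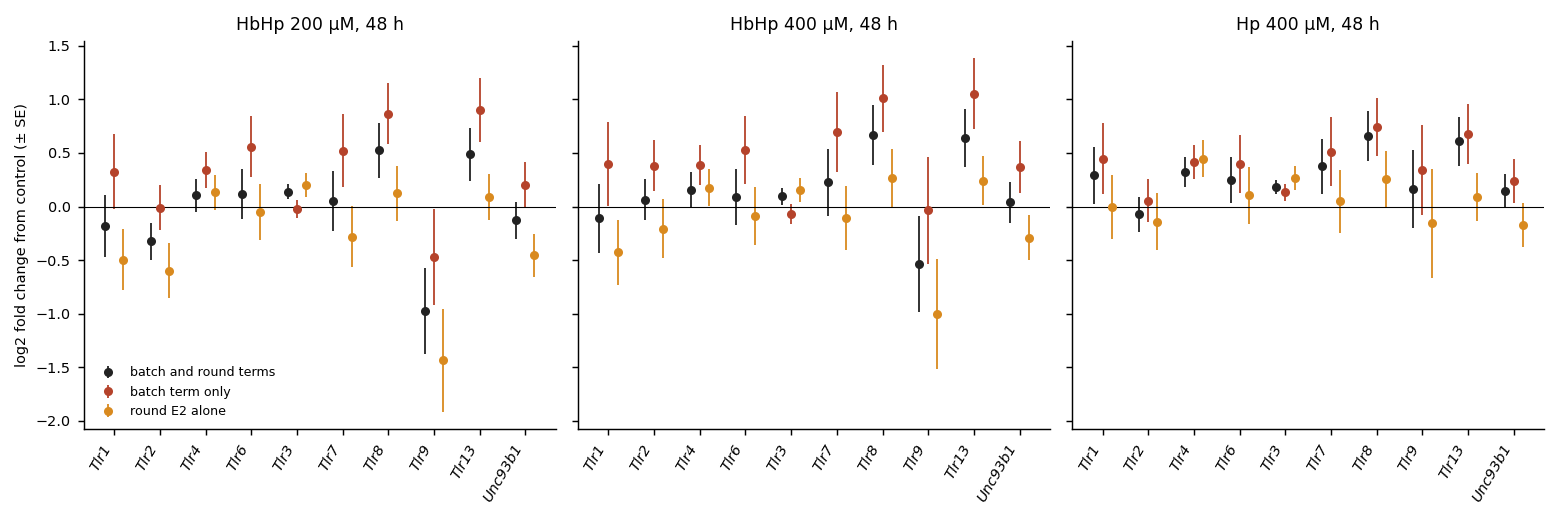
Log2 fold change from the 48 h control (y axis, ± SE) of the 10 members for HbHp 200 µM, HbHp 400 µM and Hp 400 µM, fitted with batch and round terms (black), with the batch term only (red) and within round E2 alone (orange). For Tlr13 at HbHp 400 µM the 3 values are 0.64, 1.05 and 0.24.

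HbHp compared with Hb at the same 200 µM gave 0 calls by edgeR at 24 h (1 at an unadjusted p under 0.05, 0 by DESeq2, 0.607% of all genes called) and 0 at 48 h (2 and 0, 4.98% of all genes called). The lowest adjusted p at 24 h belonged to Tlr2, at -0.57 ± 0.18 (adjusted p = 0.101). Hp alone at 400 µM gave 0 calls by edgeR at 24 h (0 at an unadjusted p under 0.05, 0 by DESeq2, 0.704% of all genes called). At 48 h it gave 1, Tlr3, where 10.8% of all genes were called. Tlr3 ran from 28.8 to 39.6 CPM (median 35.98) in controls and from 29.6 to 41.7 (median 38.3) with Hp. The libraries overlapped almost fully, and the log2 difference was 0.18 ± 0.06 (adjusted p = 0.0449). The call was lost with the batch term only and within round E2 alone, where the difference was 0.27 ± 0.11 (adjusted p = 0.446). Tlr8 (0.66 ± 0.23, adjusted p = 0.0540) and Tlr13 (0.61 ± 0.22, adjusted p = 0.0632) were just outside the threshold and were called by DESeq2 (adjusted p = 0.0390 and 0.0475). Hp, the plasma protein that binds free Hb, was given here without added Hb.

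Pathway genes outside the family were called at 48 h as well. Of 69 tested, 7 rose and 6 fell at HbHp 200 µM, 12 rose and 2 fell at HbHp 400 µM, 8 rose and 2 fell with Hp 400 µM, and 1 rose and 0 fell with Hb 400 µM, where 11.9%, 11.9%, 10.8% and 0.601% of all genes were called. Most of these calls were lost within round E2 alone, a comparison added after the data were seen, which leaves 2 control libraries at 48 h. There 1 rose at HbHp 200 µM, 6 rose at HbHp 400 µM and 0 were called with Hp or with Hb 400 µM, where 3.93%, 4.66%, 0.0304% and 0.219% of all genes were called, and 0 fell in any of the 4. In the fits with all libraries Tbk1, the kinase that activates IRF3, rose by 0.28 ± 0.05 (adjusted p = 0.000142), 0.36 ± 0.06 (adjusted p = 4.01e-06), 0.20 ± 0.05 (adjusted p = 0.00516) and 0.17 ± 0.04 (adjusted p = 0.0355), all against the same 48 h controls. The lipid scavenger and TLR2 co-receptor Cd36 rose with HbHp at 200 µM (0.80 ± 0.23, adjusted p = 0.0142) and 400 µM (1.03 ± 0.25, adjusted p = 0.00268) and with Hp alone (0.84 ± 0.21, adjusted p = 0.00622). Cd14, the co-receptor that delivers lipopolysaccharide to TLR4, rose at HbHp 400 µM by 1.10 ± 0.23 (adjusted p = 0.000287). Of 8 tested NF-kB output genes 4 rose and 0 fell there, among them Ptgs2 (1.57 ± 0.29, adjusted p = 6.29e-05) and Il6 (1.49 ± 0.36, adjusted p = 0.00209). Within round E2 alone Ptgs2 (1.85 ± 0.44, adjusted p = 0.00765) and Il6 (1.98 ± 0.57, adjusted p = 0.0344) were called at HbHp 400 µM, whereas Cd14 (0.80 ± 0.27, adjusted p = 0.0758) and Cd36 (0.65 ± 0.24, adjusted p = 0.110) were not, and Tbk1 was called for none of the 4 treatments.

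Time in culture alone gave 0 calls among the members by edgeR, with 4 at an unadjusted p under 0.05 and 0 by DESeq2, where 4.5% of all genes were called. All 10 values for 48 h against 24 h controls were positive, with a median of 0.39 beside 0.00 over all genes. Unc93b1 was the nearest to a call (0.39 ± 0.14, adjusted p = 0.0952), with libraries from 42.96 to 113 CPM at 24 h and from 51.5 to 154 CPM at 48 h. Tlr6, Tlr7 and Tlr8 were at 0.45 ± 0.19, 0.50 ± 0.23 and 0.46 ± 0.21 (adjusted p = 0.167, 0.209 and 0.203). Within round E2 alone, with 3 controls at 24 h and 2 at 48 h, Tlr7 and Tlr8 were called at 1.18 ± 0.31 and 1.18 ± 0.27 (adjusted p = 0.0489 for each), where 0.876% of all genes were called. Microglia markers moved with time too. Of 17 tested, 2 rose and 0 fell (median 0.59), Cx3cr1 by 1.37 ± 0.41 (adjusted p = 0.0375) and P2ry12 by 0.56 ± 0.15 (adjusted p = 0.0160). The median of their sum was 1737 CPM at 24 h and 2207 CPM at 48 h in round E1, and 2295 and 6885 CPM in round E2, and their part in the values of the members was not tested. No difference in a treatment effect between 48 h and 24 h passed the test for any member. The interaction terms gave 0 members by edgeR and 0 by DESeq2 for each treatment, where 0.0% of all genes were called for Hb at 200 µM, Hb at 400 µM and Hp, 0.0121% for HbHp at 200 µM and 0.0304% for HbHp at 400 µM. At an unadjusted p under 0.05 there was 1 member for Hb 400 µM (Tlr3) and 1 for HbHp 400 µM (Tlr2).

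Tlr7, Tlr8 and Tlr13 lie on the X chromosome, and the library names carry a letter, M, W or F. All libraries with M held at least 130 CPM of 4 Y-linked genes summed, and all others at most 0.139 CPM. With 1 mean per library code, 9 codes with M were set against 9 codes with F in batches 2 and 3 by limma. All members but Tlr2 were lower with M, and 1 was called, where 2.51% of all genes were called. Tlr7 was lower by 0.43 ± 0.11 on the log2 scale (adjusted p = 0.0451). Tlr4, which is autosomal, was at -0.24 ± 0.06 (adjusted p = 0.0518), Tlr8 at -0.30 ± 0.11 (adjusted p = 0.125) and Tlr13 at -0.29 ± 0.10 (adjusted p = 0.116). The autosomal Tlr1 and Tlr6 were at -0.31 ± 0.10 (adjusted p = 0.0853) and -0.27 ± 0.09 (adjusted p = 0.0938). The lower values were thus not particular to the X-linked members. In batch 1, with 5 codes against 4, limma called 0 members (0 at an unadjusted p under 0.05), where 0.0321% of all genes were called, and Tlr7 was at 0.00 ± 0.18 (adjusted p = 0.998). Whether the sets differed was not tested.

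Within groups most members varied together. After removing group, batch and round means, the log2 CPM of Tlr7 and Tlr13 had a Pearson r of 0.97 over 60 libraries of batch 1 and of 0.96 over the libraries of batches 2 and 3. Tlr8 followed both (0.90 and 0.93 with Tlr7, 0.93 and 0.93 with Tlr13), and Tlr1 was next, at 0.85 and 0.91 with Tlr7. Tlr4 stood at 0.80 and 0.82 with Tlr7, Unc93b1 at 0.78 and 0.91 and Tlr6 at 0.76 and 0.90. Tlr2 stayed at or under 0.42 with every other member in batch 1 and 0.36 in batches 2 and 3, and Tlr3 at or under 0.39 and 0.34. Libraries of one code and of one depth enter these values, so they are given as a description. The genes most like each member over both sets were chosen by the mean of the 2 correlations. For Tlr13 and Tlr7 the first was Ptprc, the leukocyte antigen CD45 (0.98 and 0.97 with Tlr13, 0.97 and 0.97 with Tlr7). For Tlr8 it was Tlr13, for Tlr4 it was Tlr8 (0.81 and 0.83), for Tlr1 Havcr2 (0.88 and 0.91) and for Tlr6 Lcp1 (0.83 and 0.91). Unc93b1 was closest to Slc15a3, an endolysosomal histidine and peptide transporter, at 0.96 and 0.96. Tlr2 was closest to Il1a (0.81 and 0.59), Tlr3 to Eif2ak2, the double-stranded RNA kinase PKR (0.85 and 0.60), and Tlr9 to Elf4 (0.64 and 0.74). With the 17 microglia markers the median r was 0.90 for Unc93b1, 0.81 for Tlr13 and 0.80 for Tlr7 in batch 1, 0.23 for Tlr2 and -0.02 for Tlr3. In batches 2 and 3 these medians were 0.92, 0.91, 0.93, 0.23 and 0.01. Among the markers Sall1 alone ran against Unc93b1 in both sets, at -0.79 and -0.51.

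**Figure D5:**
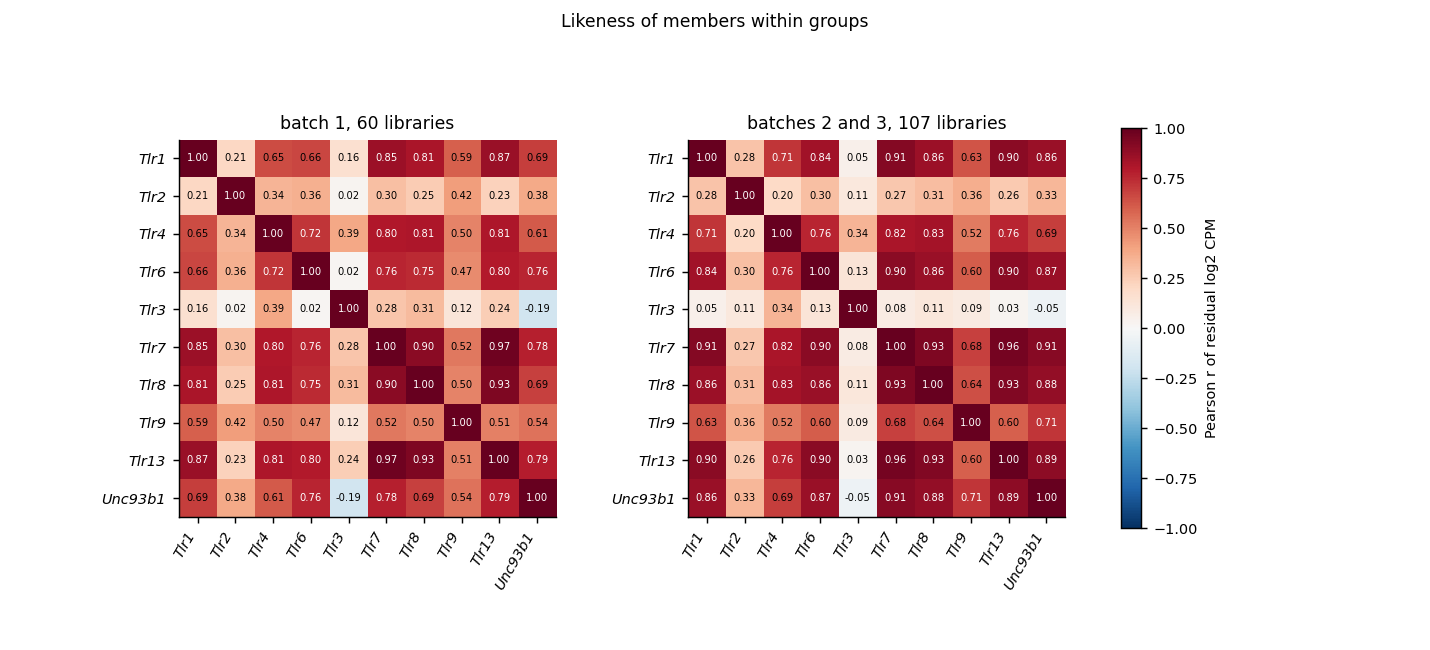
Pearson r of residual log2 CPM between members, after removing group means (and batch and round in the right panel), over 60 libraries of batch 1 (left) and over those of batches 2 and 3 (right). Color runs from -1 to 1. Tlr2 and Tlr3 form the pale rows and columns, with r at or under 0.42 and 0.39 in batch 1.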

How the data were processed

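The deposited files hold raw read counts per Ensembl gene, 1 file per library. Per the labels and the study's methods, the authors prepared TruSeq mRNA libraries and counted reads with featureCounts on GRCm39. The aligner, the versions and the use of strand are not given in the sources used here, and shared or antisense sequence can therefore move counts between genes. Groups came from the labels, and 21 of 188 libraries whose labels disagree were left out of every comparison. Genes were filtered by filterByExpr (smallest count 10), which left 15554 genes in batch 1 and 16473 in batches 2 and 3, and were tested with edgeR 4.0.16 (quasi-likelihood, TMM scaling, R 4.3.3) over all groups of a set, with batch and round terms in batches 2 and 3. P-values were adjusted over all genes tested by Benjamini-Hochberg, with a threshold of 0.05. DESeq2 1.42.0 and limma 3.58.1 served as alternatives and for the letter test. On simulated counts of 15511 genes for heme-albumin 200 µM against control, 71% of the genes changed by 0.5 and 90% of those changed by 1 (log2) were called. For HbHp 200 µM against control at 48 h, on 16322 genes, these shares were 63.6% and 79.6%. False calls numbered 11 for heme-albumin and 5 for HbHp. In both simulations the changed genes were drawn at random, and the counts held no batch, round or code effect. The shares are therefore not the power for single members. The letter test as planned made 118 false calls on simulated counts, so means per library code were used instead, which made 1. No library was identical to another, and over 724 pairs within groups the lowest chi-square per degree of freedom was 3.48. All 10 members are named in each comparison, with up to 3 called genes of largest change per pathway list and the 3 genes most correlated with each member as the pool of likeness. The members, lists and tests were chosen with earlier results of these data known.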

Additional observations from a re-analysis of the deposited data

Results flagged for a closer look

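Single libraries stood far from the rest of their group in 22 of 160 pairs of gene and group, 13.8%. These pairs are not independent, since 1 library can be flagged for several members that vary together, so the share is a description. Heme-albumin 50 µM replicate 5 was the highest for 6 members, at 5.26 CPM for Tlr1 and for Tlr6, 21.7 for Tlr4, 43.6 for Tlr7, 19.1 for Tlr8 and 121.2 for Tlr13. Tlr2 stood high in 1 library of each of 6 groups. It read 72.9 CPM at heme-albumin 50 µM (replicate 4), 23.9 at 200 µM (replicate 9), 34.4 at 400 µM (replicate 2), 42.04 with hemeHpx (replicate 4), 28.03 with Hb 400 µM at 24 h (replicate 8) and 65.1 with HbHp 400 µM at 48 h (replicate 2). Tlr3 read 47.9 CPM at heme-albumin 200 µM (replicate 8), 46.7 with hemeHpx (replicate 8) and 54.7 with Hb 400 µM at 48 h (replicate 3), each the highest of its group, and 24.8 in a 24 h control (replicate 11), the lowest. Tlr1 was lowest in another 24 h control, at 1.10 CPM (replicate 4). Tlr4 read 17.8 CPM at heme-albumin 400 µM (replicate 6), Tlr7 read 67.5 with Hb 400 µM at 24 h (replicate 8) and Tlr13 read 239.1 with HbHp 200 µM at 48 h (replicate 1). Tlr9 read 1.28 CPM at heme-albumin 12.5 µM (replicate 8) and 1.43 with HbHp 200 µM at 24 h (replicate 1).

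Among libraries that the labels put in no group, the median at 48 h lay above the highest 48 h control for Tlr4 (21.6 against 20.7 CPM), Tlr8 (31.6 against 22.3 CPM) and Tlr13 (169.2 against 160.3 CPM). These levels were scaled together with the controls in a separate step and were not tested.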

How the results depend on the processing

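Scaling by RLE and testing without the filter on low counts changed no count of members called by more than 1.5 times. With 1 library left out, the members called were 3 at the lowest for heme-albumin 200 µM (without control replicate 16), 0 to 1 for hemeHpx against control (without control replicate 13, 15, 17 or 20 or hemeHpx replicate 8 it was 1, Tlr3), up to 4 for the dose slope (without heme-albumin 400 µM replicate 6), 0 to 1 for HbHp 400 µM at 24 h (replicate 4) and at 48 h (replicate 2), and up to 2 for Hp at 48 h (control replicate 7 or 9). Without replicate 2, Tlr2 at HbHp 400 µM and 48 h reversed from 0.07 to -0.50, and ran up to 0.21 when other libraries of that group were left out. With the batch term only, 2 members were called for HbHp 200 µM, 2 for HbHp 400 µM and 0 for Hp at 48 h. With neither term the counts were 2, 3 and 3, with 1 for HbHp 400 µM at 24 h and 1 for HbHp against Hb at 48 h. Within round E2 alone they were 0 for Hp at 48 h and 2 for control 48 h against 24 h (Tlr7 and Tlr8, 1.18 each). DESeq2 called 3 for Hp at 48 h. The letter test called 7 members in batches 2 and 3 as planned and 1 with code means. With the library code as a replicate block, 1 member was called for hemeHpx against control (Tlr3), 2 for HbHp 400 µM at 48 h (Tlr13 and Tlr8) and 3 for Hp at 48 h (Tlr4, Tlr8 and Tlr13, with Tlr3 no longer called), and no other count moved by more than 1.5 times. With this block the share of all genes called was 23.8% for hemeHpx against control, 12.5% for HbHp 400 µM at 48 h and 8.6% for Hp at 48 h. Without it these shares were 8.2%, 11.9% and 10.8%. Libraries shared only a code. Same-code libraries had a mean correlation of residuals of 0.128 in batch 1, over 0.1 in 5 of 9 codes, and of 0.0590 in batches 2 and 3, over 0.1 in 1 of 18. Libraries of different codes had means of -0.0299 in batch 1 and -0.0126 in batches 2 and 3. The main tests held no term for the code. The cause of these changes in calls was not tested. Depth limits Tlr9 most, at 2 to 13 counts per batch 1 control library.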

Other observations

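In 20 libraries the title names hemoglobin-haptoglobin at 400 µM, whereas the treatment tag gives HbHpx and the library name gives hemopexin alone, so they entered no comparison. In the 10 at 24 h, Tlr7 ran from 12.5 to 68.9 CPM (median 23.3), Tlr13 from 44.6 to 176.2 (median 75.8) and Unc93b1 from 62.7 to 133.0 (median 69.5). In the 10 at 48 h, Tlr7 ran from 20.6 to 82.7 CPM (median 68.3), Tlr13 from 61.7 to 215.9 (median 169.2) and Unc93b1 from 58.2 to 165.2 (median 130.5). Tlr2 ran from 22.4 to 32.8 CPM at 48 h, and Tlr3 from 23.1 to 38.2. The remaining library, whose labels disagree on its time, read 51.98 CPM of Tlr7, 116.0 of Tlr13 and 116.9 of Unc93b1.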
